A study of Mus musculus with 7 samples.

Results

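The genes described here are 33 members of programmed cell death and stress pathways, out of 54532 genes in a table of mouse eye transcripts. They were chosen by name, with earlier results of these data known. They comprise 17 caspase and BCL2 family genes, 6 genes of death receptors, necroptosis and pyroptosis, 4 genes of calpains, PARP1 and the apoptosis-inducing factor, and 6 genes of the p53 and Gadd45 group. Each was found once in the table. The libraries came from 3 knockout (KO), 2 heterozygous (HET) and 2 wildtype (WT) samples for Agbl5. Its product CCP5 is a carboxypeptidase that takes glutamate branch points off tubulin. The study asked what Agbl5 does in retinal photoreceptors. The tissue was labelled eyeball, while the extraction protocol spoke of retina, and RNA was selected for poly-A tails. Age, strain, how the knockout allele was made, and whether replicates came from separate animals were not given in the sources used here, so p-values measure only the spread between these libraries, which may be technical.

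Apoptosis runs through caspases, proteases that are switched on either at death receptors of the cell surface or after mitochondria release cytochrome c. BCL2 family proteins decide on that release: Bax and Bak1 form the pores, Bcl2, Bcl2l1 and Mcl1 hold them back, and BH3-only proteins such as Bbc3 (PUMA) and Bcl2l11 (BIM) tip the balance towards death. Necroptosis, pyroptosis and calpain- or PARP-linked death are other routes, and several of them have been studied in dying photoreceptors. Gadd45 proteins are small, stress-induced proteins that bind and activate the kinase Map3k4 upstream of p38 and JNK, and p53 induces Gadd45a along with Cdkn1a and Mdm2. The abundance of these transcripts is not a measure of protease activity or of the number of dying cells.

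The libraries held 12238268 to 14327633 recovered reads each, and values are FPKM, fragments scaled by gene length and library size. Agbl5 was at 1.27 to 1.73 FPKM in KO libraries, at 4.21 and 5.34 FPKM in HET libraries and at 8.57 and 9.89 FPKM in WT libraries, in the order of the labels. Rod marker genes were detected in every library. KO 1 and HET 1 held lens transcripts, with Cryaa at 2541 and 1733 FPKM against 1.11 to 12.3 FPKM elsewhere. The Y-linked Ddx3y had a value of 0 in KO 3 and WT 2 alone. Xist was at 158 FPKM in KO 3, at 181 FPKM in WT 2 and at most 0.0381 FPKM elsewhere. By these genes KO 3 and WT 2 were female and the other libraries male. Both HET libraries were thus male, while KO and WT held both sexes, so comparisons with HET also differ in sex. Fewer cells of a type and less RNA per cell cannot be told apart in such whole tissue.

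Of the 33 members, 23 were tested and Gadd45b alone passed the test. Gadd45b rose in KO libraries against WT libraries, against HET libraries and against both sets of controls together. In 10 members the mean over the 7 libraries lay below 1 FPKM, the level set for testing, which left 23 of 33 tested. The test was limma on log2(FPKM + 1), a scale that understates fold changes of low genes, with Benjamini-Hochberg adjustment over 15472 genes and a threshold of 0.05. It called 1 of the 23 tested members in KO against WT, where it called 0.323% of all tested genes, 1 in KO against HET, where it called 0.317%, and 1 in KO against all controls, where it called 0.614%. Calls were more often upward, with 0.265% of tested genes higher and 0.0582% lower against WT, 0.271% and 0.0452% against HET, and 0.465% and 0.149% against all controls. The 3 comparisons share the KO libraries and are not independent. Because the members were chosen with earlier results of these data known, their shares beside all tested genes only describe the list. At an unadjusted p under 0.05 there were 5, 4 and 5 of the 23 members in these comparisons, beside 1160, 1859 and 1891 of the 15472 tested genes (7.50% against WT and 12.2% against all controls), and Gadd45b, Tnfrsf1a, Parp1 and Bbc3 were among them each time. Values did not overlap between KO and WT in 9 of the 23 tested members (39.1%; 7 higher and 2 lower in KO), beside 28.2% of all tested genes (13.5% higher, 14.7% lower). Between KO and HET this held for 10 of 23 (43.5%; 7 higher and 3 lower), beside 29.8% (15.3% higher, 14.5% lower). The median log2 difference of the 23 was 0.11 against WT and 0.07 against all controls, beside -0.0034 and 0.0027 for all tested genes, and on the TPM scale -0.03 and -0.04 beside -0.16 and -0.12. For the 22 other tested members, log2 differences between KO and WT lay between -0.34 and 0.47.

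**Figure D1:**
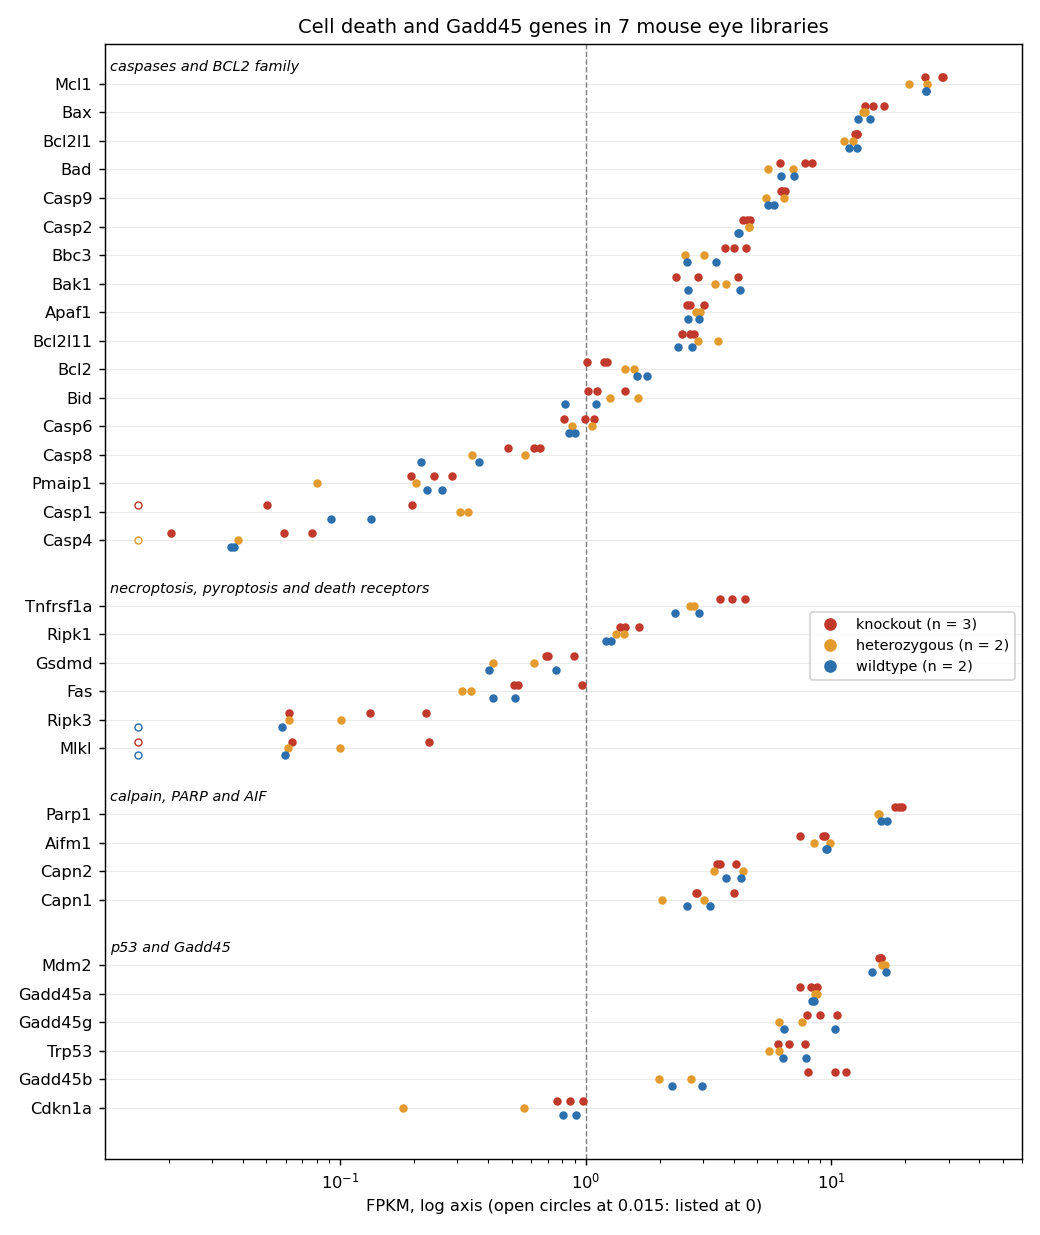
FPKM of each of the 33 members (rows, log axis) in 3 KO, 2 HET and 2 WT libraries, one point per library, in 4 groups by role; the dashed line marks 1 FPKM and open circles mark values listed at 0. The KO points of Gadd45b stand at 8.05 to 11.5 FPKM, right of all control points of that gene, while for most other members the genotypes overlap.

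Gadd45b (ENSMUSG00000015312) lies on the plus strand of chromosome 10 at 80930073 to 80932204 in GRCm38, where its 3 merged exons span 1589 bases. It stood at 10.4, 11.5 and 8.05 FPKM in the KO libraries, at 2.67 and 1.98 FPKM in the HET libraries and at 2.24 and 2.96 FPKM in the WT libraries. The lowest KO library was above the highest control library, and the HET and WT values overlapped. These levels stood on 175 to 257 reads in KO libraries and 41 to 71 reads in control libraries, and no other annotated exon overlaps the gene. The KO mean of 9.96 ± 1.74 FPKM (SD, n = 3) was 3.83 times the WT mean of 2.60 ± 0.513 FPKM (n = 2) and 4.05 times the mean of all controls, 2.46 ± 0.440 FPKM (n = 4).

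On the log2 scale Gadd45b was higher in KO than in WT by 1.60 ± 0.17 (SE; limma, adjusted p = 0.0226), with a 95% interval from 1.19 to 2.02. It was higher in KO than in HET by 1.72 ± 0.17 (adjusted p = 0.0171) and higher in KO than in all controls by 1.66 ± 0.14 (adjusted p = 0.00196). Among 15472 genes it ranked 35, 30 and 26 by p in these 3 comparisons. HET against WT gave -0.12 ± 0.19 (adjusted p = 0.976), with an interval from -0.57 to 0.34. The call against WT held in 7 of 16 alternatives and the call against HET in 9 of 16. The call against WT was lost without any one of KO 1, KO 2, WT 1 and WT 2, with log2 differences of 1.46 to 1.75 and adjusted p up to 0.224, and the call against HET without any one of KO 1, KO 2, HET 1 and HET 2, with log2 differences of 1.56 to 1.87. Both calls were also lost without the 2 lens-rich libraries, with the Ddx3y level as a covariate and with the replicate block (adjusted p = 0.117 against WT and 0.128 against HET), and the call against WT without the filter and in the fit with a lens covariate. The call against all controls held in 16 of 16 alternatives, with adjusted p up to 0.0490.

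The 2 relatives of Gadd45b, which are known to bind the same kinase, gave other values. Gadd45a, the p53-induced member, was at 8.70, 8.28 and 7.42 FPKM in KO libraries, at 8.71 and 8.56 FPKM in HET libraries and at 8.33 and 8.50 FPKM in WT libraries. These overlapped, with a log2 difference between KO and all controls of -0.06 ± 0.06 (limma, adjusted p = 0.710) and a 95% interval from -0.21 to 0.08. Exons of E230016M11Rik on the other strand overlap 337 of its 1764 bases. Gadd45g was at 7.99, 10.5 and 8.98 FPKM in KO libraries, at 6.10 and 7.58 FPKM in HET libraries and at 10.4 and 6.39 FPKM in WT libraries. WT 1 lay among the KO libraries, both HET libraries lay below them, and the difference from all controls, 0.26 ± 0.17, did not pass (adjusted p = 0.575; 95% interval from -0.14 to 0.65).

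Because FPKM are scaled by length, the 3 family members can be set side by side. Gadd45b made up 38.3%, 37.9% and 32.9% of the summed Gadd45 FPKM in the KO libraries, against 15.3% and 10.9% in the HET libraries and 10.7% and 16.6% in the WT libraries. It was thus the least abundant of the family in every control library, and in KO 1 and KO 2 it was the most abundant. The family sum was 24.5 to 30.3 FPKM in KO libraries and 17.5 to 20.9 FPKM in control libraries.

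**Figure D2:**
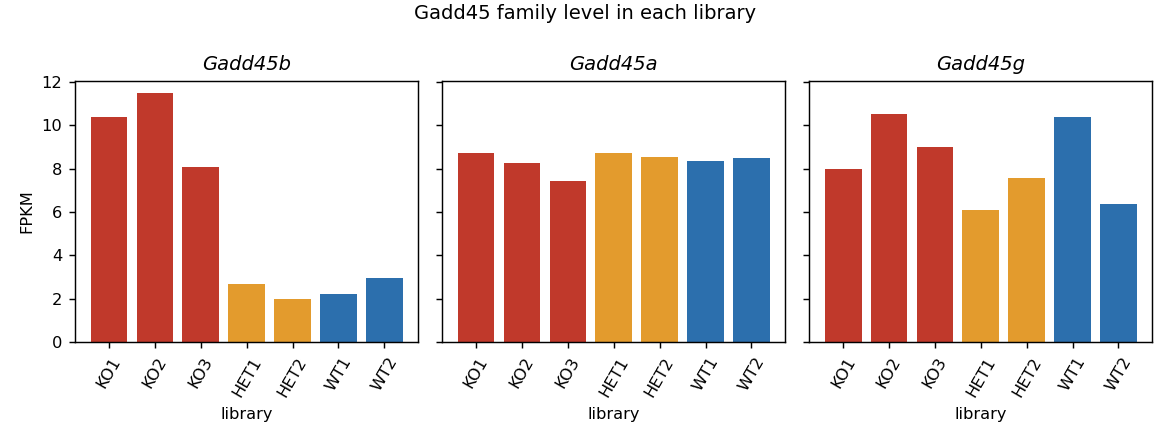
FPKM (vertical axis, from 0) of Gadd45b, Gadd45a and Gadd45g in each library, with KO bars left of HET and WT bars. All 3 KO bars of Gadd45b are above 8 FPKM and all 4 control bars are below 3 FPKM, whereas the KO and WT bars of Gadd45a and Gadd45g overlap.

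The 250 bases before the RefSeq start sites of the 3 genes are given as background (RefSeq, GRCm38.p6, 5′ to 3′ on the strand of the gene). The part of these sequences in the Gadd45b difference was not tested. Gadd45b lies at chr10:80929841-80930090 on the plus strand, Gadd45a at chr6:67037408-67037657 on the minus strand and Gadd45g at chr13:51846425-51846674 on the plus strand. Capitals mark matches to any of the motifs searched.
Gadd45b: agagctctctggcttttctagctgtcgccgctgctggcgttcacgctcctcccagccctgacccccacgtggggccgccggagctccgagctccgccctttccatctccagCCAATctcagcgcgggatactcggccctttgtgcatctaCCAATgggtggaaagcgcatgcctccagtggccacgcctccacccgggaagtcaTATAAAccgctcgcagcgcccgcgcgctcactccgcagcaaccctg
Gadd45a: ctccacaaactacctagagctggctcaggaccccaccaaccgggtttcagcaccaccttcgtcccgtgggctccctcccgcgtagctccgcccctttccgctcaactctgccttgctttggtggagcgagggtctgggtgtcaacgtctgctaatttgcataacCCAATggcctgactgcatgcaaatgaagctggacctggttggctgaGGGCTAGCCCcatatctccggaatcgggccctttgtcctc
Gadd45g: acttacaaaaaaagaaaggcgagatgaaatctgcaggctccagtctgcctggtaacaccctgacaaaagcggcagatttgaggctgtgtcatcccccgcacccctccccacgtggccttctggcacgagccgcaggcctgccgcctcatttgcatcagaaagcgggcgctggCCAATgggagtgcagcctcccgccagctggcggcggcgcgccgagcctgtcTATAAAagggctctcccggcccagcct

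The motifs were searched on both strands: CCAAT, the TATA box TATAAA, the STAT motif TTCNNNGAA, the AP-1 motif TGANTCA, the CRE motif TGACGTCA, and the kappa-B motif and p53 half-site by their usual consensus. Gadd45b held CCAAT at 139 to 135 and at 100 to 96 bases upstream and TATAAA at 46 to 41 bases upstream. Gadd45g held CCAAT at 78 to 74 and TATAAA at 27 to 22 bases upstream. Gadd45a held CCAAT at 86 to 82 and a p53 half-site at 40 to 31 bases upstream, and no TATAAA. These distances count from the RefSeq start sites. By GENCODE, Gadd45b starts at 80930073 and Gadd45a at 67037457, both inside their windows, and the half-site of Gadd45a lies within the gene. Distances of the 3 genes therefore depend on the start annotation and cannot be compared as sequence differences. Among 32851 promoter windows of the same length, 33.8% held CCAAT, 12.4% TATAAA and 7.13% a p53 half-site. Of the 31 members with a promoter entry, 8 had more than 1 window, and a member was counted if any of its windows matched: 13 held CCAAT, 3 TATAAA, 5 a p53 half-site, 4 a kappa-B motif, 3 a STAT motif, 2 an AP-1 motif and 0 the CRE motif. The shares of all windows were 3.90% for kappa-B, 7.02% for STAT, 6.75% for AP-1 and 1.55% for CRE. Counted per gene in the same way, over 27025 genes, the shares were 37.5% for CCAAT, 14.3% for TATAAA, 8.20% for a p53 half-site, 4.46% for kappa-B, 8.13% for STAT, 7.82% for AP-1 and 1.77% for CRE. The windows of the 3 Gadd45 genes held none of these last 4 motifs, which says only that those letters are not in these windows.

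The p53 genes overlapped between KO and control libraries. Trp53, which encodes p53, was at 6.71, 6.05 and 7.79 FPKM in KO libraries, at 6.14 and 5.57 FPKM in HET libraries and at 7.86 and 6.33 FPKM in WT libraries, so the genotypes overlapped. Mdm2, the ubiquitin ligase gene that p53 induces and that limits it, was at 15.7 to 16.0 FPKM in KO libraries and 14.6 to 16.7 FPKM in control libraries. Cdkn1a, which encodes the cell cycle inhibitor p21, was below the testing level, with 0.766 to 0.977 FPKM in KO libraries, 0.179 and 0.561 FPKM in HET libraries and 0.808 and 0.915 FPKM in WT libraries. HET 1 had the lowest value, on 9 reads, and KO and WT overlapped. Limma called 1 of the 5 tested genes of the p53 and Gadd45 group, Gadd45b, with 1 at an unadjusted p under 0.05 and 1 called with voom weights, in KO against WT and likewise in KO against all controls.

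None of the caspase genes passed the test. Casp2, Casp8 and Casp9 were higher in every KO library than in either WT library, as were 13.5% of all tested genes. Against HET libraries these genes overlapped, and Casp1, on at most 7 reads, was lower in every KO library than in either HET library. Casp9, the initiator caspase gene of the mitochondrial route, was at 6.28, 6.21 and 6.47 FPKM in KO libraries, at 6.39 and 5.43 FPKM in HET libraries and at 5.84 and 5.50 FPKM in WT libraries. KO and WT did not overlap and HET 1 lay among the KO libraries. The log2 difference of 0.13 ± 0.08 from WT did not pass (limma, adjusted p = 0.787). It turned to -0.0065 on the TPM scale, where all tested genes had a median of -0.16. Exons of Cela2a and Ctrc on the other strand overlap 188 of its bases. Apaf1, the scaffold on which caspase 9 is activated, was at 2.59 to 3.01 FPKM in KO libraries and 2.61 to 2.91 FPKM in control libraries. Casp2, which codes for another initiator caspase, was at 4.36 to 4.67 FPKM in KO libraries, at 4.62 and 4.63 FPKM in HET libraries and at 4.18 and 4.19 FPKM in WT libraries, a log2 difference of 0.09 ± 0.07 between KO and WT (limma, adjusted p = 0.838).

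The other 4 caspase genes lay below the testing level. Casp8, the initiator at death receptors, was at 0.653, 0.613 and 0.480 FPKM in KO libraries, at 0.563 and 0.344 FPKM in HET libraries and at 0.213 and 0.367 FPKM in WT libraries, on 9 to 25 reads. KO and WT did not overlap, 1 HET library lay in each range, and without the filter the difference from WT was 0.30 ± 0.12 (adjusted p = 0.847). Casp6, an effector, was at 0.812 to 1.08 FPKM in KO libraries and 0.855 to 1.06 FPKM in control libraries. The inflammatory caspase genes Casp1 and Casp4 had at most 7 and 4 reads in any library, too few to read a difference.

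Among the BCL2 family, Bbc3 had higher and Bcl2 lower values in every KO library than in any control library, and neither passed the test. Bbc3, whose product PUMA is a BH3-only killer protein induced by p53 and other signals, was at 4.48, 3.70 and 3.99 FPKM in KO libraries, at 2.53 and 3.03 FPKM in HET libraries and at 3.38 and 2.59 FPKM in WT libraries. Its log2 difference was 0.35 ± 0.13 from WT (limma, adjusted p = 0.610), 0.42 ± 0.13 from HET (adjusted p = 0.318) and 0.38 ± 0.10 from all controls (adjusted p = 0.216; 95% interval from 0.15 to 0.62). Bcl2, the anti-apoptotic gene that names the family, was at 1.22, 1.18 and 1.01 FPKM in KO libraries, at 1.44 and 1.57 FPKM in HET libraries and at 1.62 and 1.77 FPKM in WT libraries. The KO mean of 1.14 ± 0.115 FPKM stood against 1.70 ± 0.109 FPKM in WT libraries, a log2 difference of -0.34 ± 0.12 (adjusted p = 0.605), and against 1.60 ± 0.139 FPKM in all controls, a difference of -0.28 ± 0.10 (adjusted p = 0.334; 95% interval from -0.51 to -0.05). The 3 genotypes of Bcl2 did not overlap, with HET between KO and WT. How many of all tested genes had this order was not counted. Bcl2 did not pass in HET against WT (-0.11 ± 0.13; 95% interval from -0.42 to 0.21). Nor did it pass in KO against HET (-0.23 ± 0.12; 95% interval from -0.52 to 0.06), and an effect of allele number was not tested. D630008O14Rik overlaps 558 of the 9157 exon bases of Bcl2. Groups did not overlap in KO against all controls for 5 of the 23 tested members (21.7%), namely Gadd45b, Tnfrsf1a, Parp1, Bbc3 and Bcl2, beside 13% of all tested genes (6.75% higher, 6.26% lower).

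**Figure D3:**
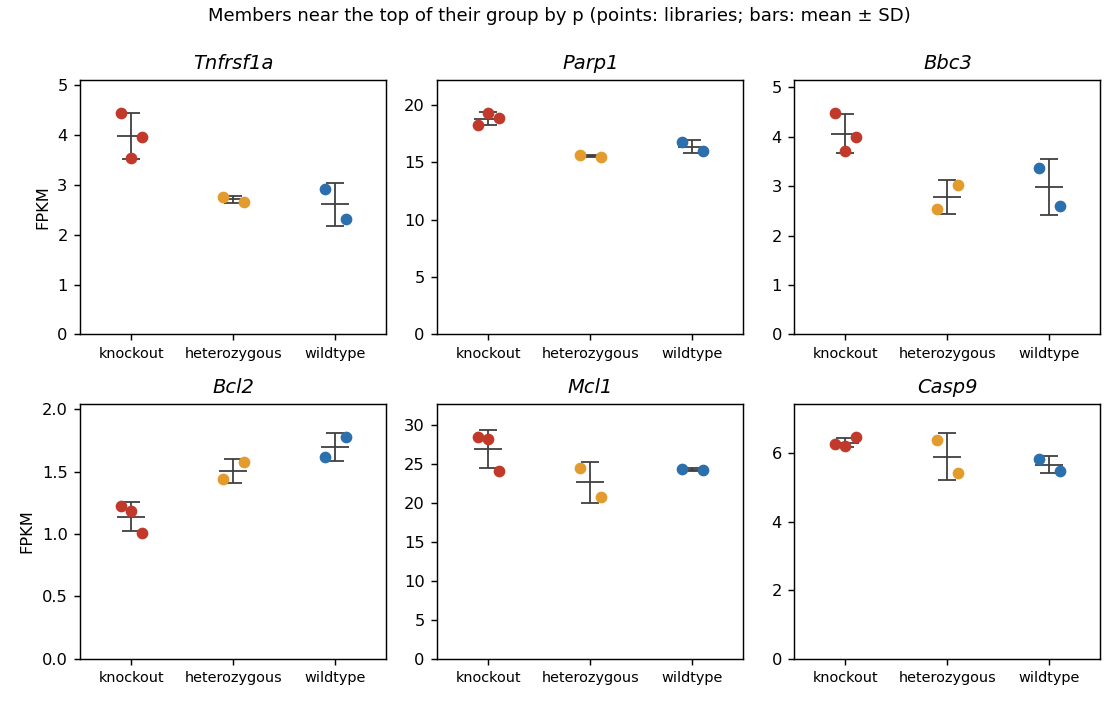
FPKM (vertical axes, from 0) of Tnfrsf1a, Parp1, Bbc3, Bcl2, Mcl1 and Casp9 by genotype, with 1 point per library and the mean ± SD of each genotype. KO points of Tnfrsf1a, Parp1 and Bbc3 lie above and those of Bcl2 below all control points, and none of the 6 genes passed the test.

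The remaining family members overlapped between KO and all controls. Mcl1, a short-lived anti-apoptotic gene and the most abundant of the 33, was at 28.4, 28.1 and 24.1 FPKM in KO libraries, at 24.5 and 20.7 FPKM in HET libraries and at 24.4 and 24.2 FPKM in WT libraries. KO 3 lay within the control range, and the difference from all controls, 0.19 ± 0.08, did not pass (limma, adjusted p = 0.419). Against WT the difference was 0.14 ± 0.10, which turned to -0.021 on the TPM scale, where all tested genes had a median of -0.16. Bcl2l1, which encodes BCL-XL, was at 12.4 to 12.8 FPKM in KO libraries and 11.2 to 12.7 FPKM in control libraries. The pore-forming genes were at 13.7 to 16.4 FPKM in KO libraries and 12.8 to 14.4 FPKM in control libraries for Bax, and at 2.34 to 4.18 FPKM in KO libraries and 2.62 to 4.26 FPKM in control libraries for Bak1.

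Of the other BH3-only genes, Bad was at 6.19 to 8.33 FPKM in KO libraries and 5.54 to 7.05 FPKM in control libraries. Bcl2l11 was at 2.45 to 2.77 FPKM in KO libraries and 2.37 to 3.45 FPKM in control libraries. Bid, which caspase 8 cleaves to link death receptors to mitochondria, was at 1.02 to 1.45 FPKM in KO libraries and 0.822 to 1.64 FPKM in control libraries. Pmaip1 (NOXA), below the testing level, was at 0.193 to 0.286 FPKM in KO libraries and 0.0803 to 0.258 FPKM in control libraries. Summed over Bcl2, Bcl2l1 and Mcl1, the anti-apoptotic transcripts gave 37.8 to 42.4 FPKM in KO libraries and 33.5 to 38.8 FPKM in control libraries, and the BH3-only sum was 14.2 to 16.8 FPKM in KO libraries and 12.6 to 14.3 FPKM in control libraries. Limma called 0 of the 12 tested caspase and BCL2 family genes in KO against WT and 0 in KO against all controls, with 2 at an unadjusted p under 0.05 in each and 0 of the 11 run called with voom weights. The group median was 0.11 against WT, beside -0.0034 for all tested genes, and -0.04 on the TPM scale, where all tested genes had a median of -0.16.

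Of the 6 genes of death receptors, necroptosis and pyroptosis, Tnfrsf1a and Ripk1 were above the testing level. Tnfrsf1a, which encodes TNF receptor 1, was at 4.43, 3.53 and 3.95 FPKM in KO libraries, at 2.76 and 2.66 FPKM in HET libraries and at 2.90 and 2.30 FPKM in WT libraries. Every KO library was above every control library. The KO mean of 3.97 ± 0.453 FPKM stood against 2.60 ± 0.424 FPKM in WT libraries, a log2 difference of 0.47 ± 0.12 that did not pass (limma, adjusted p = 0.372; 95% interval from 0.18 to 0.75). Against all controls it was 0.44 ± 0.09 (adjusted p = 0.129), and it passed in 0 of 16 alternatives in either comparison. Ripk1, the kinase gene downstream of that receptor, was at 1.38 to 1.64 FPKM in KO libraries and 1.21 to 1.43 FPKM in control libraries, with HET 1 within the KO range and a difference from all controls of 0.11 ± 0.10 (adjusted p = 0.688), and exons of Serpinb6a and Gm17084 overlap 752 of its bases.

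The executioner genes of necroptosis and pyroptosis lay below the testing level. Ripk3 and Mlkl, the kinase and the membrane-rupturing protein of necroptosis, had at most 7 reads in any library, and Mlkl was listed at 0 in KO 2 and WT 2. Gsdmd, the pore protein gene of pyroptosis, was at 0.700, 0.686 and 0.892 FPKM in KO libraries, at 0.417 and 0.612 FPKM in HET libraries and at 0.403 and 0.753 FPKM in WT libraries. KO and WT overlapped, and both HET libraries lay below the KO libraries. Fas, another death receptor gene, was at 0.965, 0.512 and 0.528 FPKM in KO libraries, at 0.314 and 0.340 FPKM in HET libraries and at 0.418 and 0.515 FPKM in WT libraries, with its highest value in the lens-rich KO 1. At this depth 1 read on a gene of 1 kilobase was worth 0.0663 to 0.0766 FPKM, so differences of these genes were not detectable unless large. Without the filter, limma called 0 of the 10 low members in KO against WT, with 1 at an unadjusted p under 0.05 and a lowest adjusted p of 0.847, and 0 in KO against all controls, with 0 at an unadjusted p under 0.05. In KO against HET it called 0, with 2 at an unadjusted p under 0.05 (Casp1, adjusted p = 0.46, and Cdkn1a, adjusted p = 0.517), and in HET against WT 0, with 2 (the same 2 genes).

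Parp1 values were close among the KO libraries and above every control library, without passing the test. Parp1 encodes the polymerase of ADP-ribose chains, a sensor of DNA breaks whose overactivity has been linked to photoreceptor death. Parp1 was at 18.2, 19.3 and 18.9 FPKM in KO libraries, at 15.6 and 15.5 FPKM in HET libraries and at 16.8 and 16.0 FPKM in WT libraries. The KO mean of 18.8 ± 0.550 FPKM stood above 16.4 ± 0.588 FPKM in WT libraries, with no overlap. The log2 difference of 0.19 ± 0.06 from WT did not pass (limma, adjusted p = 0.515). That of 0.22 ± 0.05 from all controls did not pass either (limma, adjusted p = 0.146, 95% interval from 0.11 to 0.34). On the TPM scale the difference from WT was 0.036, where all tested genes had a median of -0.16.

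Capn1 and Capn2 encode calpains, calcium-activated proteases, and Aifm1 is the mitochondrial flavoprotein gene of caspase-independent death. Capn1 and Aifm1 moved with KO 1, while the Capn2 difference kept its sign in every alternative run. Capn1 was at 4.03, 2.80 and 2.84 FPKM in KO libraries, at 3.02 and 2.04 FPKM in HET libraries and at 2.57 and 3.20 FPKM in WT libraries, with the highest value in KO 1. Its difference from WT, 0.11 ± 0.18 (limma, adjusted p = 0.917), was -0.020 without KO 1. Capn2 was at 3.43 to 4.07 FPKM in KO libraries and 3.33 to 4.35 FPKM in control libraries, a difference from WT of -0.10 ± 0.12 (adjusted p = 0.894), and 1717 of its 6345 exon bases lie opposite exons of Gm37885. Aifm1 was at 7.42, 9.45 and 9.25 FPKM in KO libraries, at 8.47 and 9.87 FPKM in HET libraries and at 9.51 and 9.62 FPKM in WT libraries. KO 1 was lowest, and the difference from all controls, -0.10 ± 0.09 (adjusted p = 0.690), was 0.00013 without it. Limma called 0 of these 4 genes in KO against WT and 0 in KO against all controls, with 1 at an unadjusted p under 0.05 (Parp1) in each and 0 of the 3 run called with voom weights, where Capn1 had no recovered reads.

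**Figure D4:**
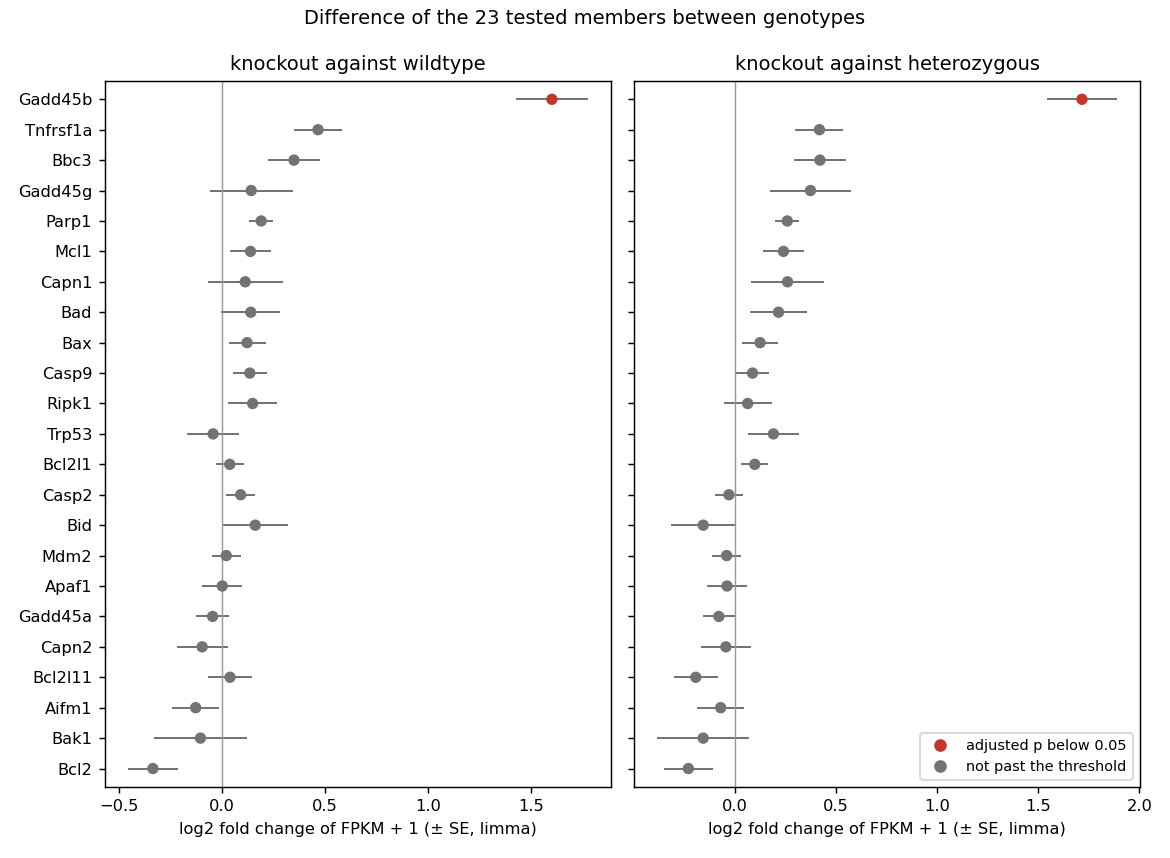
Log2 fold change ± SE of the 23 tested members (rows) for KO against WT and KO against HET, from limma on log2(FPKM + 1). Gadd45b, at 1.60 and 1.72, is the red point of each panel, and the other members lie between -0.34 and 0.47 against WT and between -0.23 and 0.42 against HET.

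HET and WT libraries were compared to ask whether 1 missing allele alone moved these genes. Limma called 0 of the 23 tested members, with 0 at an unadjusted p under 0.05 and 0 of the 21 run called with voom weights. Over all tested genes it called 0%, with 619 genes at an unadjusted p under 0.05. Even Agbl5, lower in both HET libraries than in both WT libraries, did not pass (-0.83 ± 0.14, limma, adjusted p = 0.974). With 2 libraries in each group, 0 calls therefore cannot settle whether 1 missing allele moved these genes. Log2 differences of the members other than Gadd45b ran from -0.23 (Trp53) to 0.32 (Bid). The 95% intervals of both include 0, from -0.56 to 0.10 for Trp53 and from -0.10 to 0.73 for Bid.

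Genes of the same pathways outside the 33 were counted from lists. Of 18 tested further apoptosis genes limma called 1, Bmf, in KO against all controls and 0 in KO against WT, where voom called 1. Bmf, a BH3-only gene whose product is kept on the cytoskeleton until stress releases it, was at 7.55, 6.45 and 6.38 FPKM in KO libraries, at 4.18 and 4.51 FPKM in HET libraries and at 3.72 and 4.19 FPKM in WT libraries, without overlap. It rose against all controls by 0.60 ± 0.08 (adjusted p = 0.0234), a call lost in 12 of its 16 alternatives, with adjusted p up to 0.174, and against WT the difference of 0.65 ± 0.10 did not pass (adjusted p = 0.0845). Xiap, the X-linked inhibitor of caspases, averaged 41.0 ± 1.84 FPKM in KO libraries and 49.1 ± 2.01 FPKM in all controls without passing (-0.25 ± 0.05, adjusted p = 0.124).

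Of 10 tested further genes of necroptosis, pyroptosis and death receptors, 1 fell in KO against all controls, Tnfaip3, which encodes A20, a brake on TNF receptor and NF-kappa-B signalling. Tnfaip3 was at 35.3, 34.6 and 38.5 FPKM in KO libraries, at 47.3 and 44.1 FPKM in HET libraries and at 46.3 and 46.9 FPKM in WT libraries, again without overlap. The log2 difference from all controls was -0.35 ± 0.05 (limma, adjusted p = 0.0429), a call lost in 13 of its 16 alternatives with adjusted p up to 0.273, and that from WT was -0.36 ± 0.07 (adjusted p = 0.181). Il18, the cytokine gene that inflammatory caspases mature, averaged 5.54 ± 0.276 FPKM in KO libraries and 6.32 ± 0.327 FPKM in all controls without passing (adjusted p = 0.368).

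Limma called 0 genes in the 3 other lists in KO against all controls, where 12.2% of all tested genes had an unadjusted p under 0.05. For calpain and PARP genes 2 of 10 were at an unadjusted p under 0.05, led by Parp3 (2.72 ± 0.281 FPKM in KO libraries, 1.78 ± 0.335 FPKM in all controls, adjusted p = 0.228) and Capn10 (adjusted p = 0.351), and voom called 0. For p53 network genes it was 2 of 17, the p53 target gene Sesn1 (20.5 ± 1.61 FPKM in KO libraries, 24.0 ± 0.870 FPKM in all controls, adjusted p = 0.243) and the nuclease gene Aen (adjusted p = 0.396), and voom called 0. Gadd45 partners and stress kinases gave 4 of 16, led by Map3k1 (16.1 ± 0.620 FPKM in KO libraries, 12.8 ± 0.895 FPKM in all controls, adjusted p = 0.120) and the JNK gene Mapk9 (adjusted p = 0.311). Voom called 1 of them, Map3k1, a kinase gene upstream of JNK. List medians in KO against all controls were 0.00, -0.07, 0.05, -0.02 and 0.07 for apoptosis, necroptosis, calpain and PARP, p53 and Gadd45 partners, beside 0.0027 for all tested genes.

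**Figure D5:**
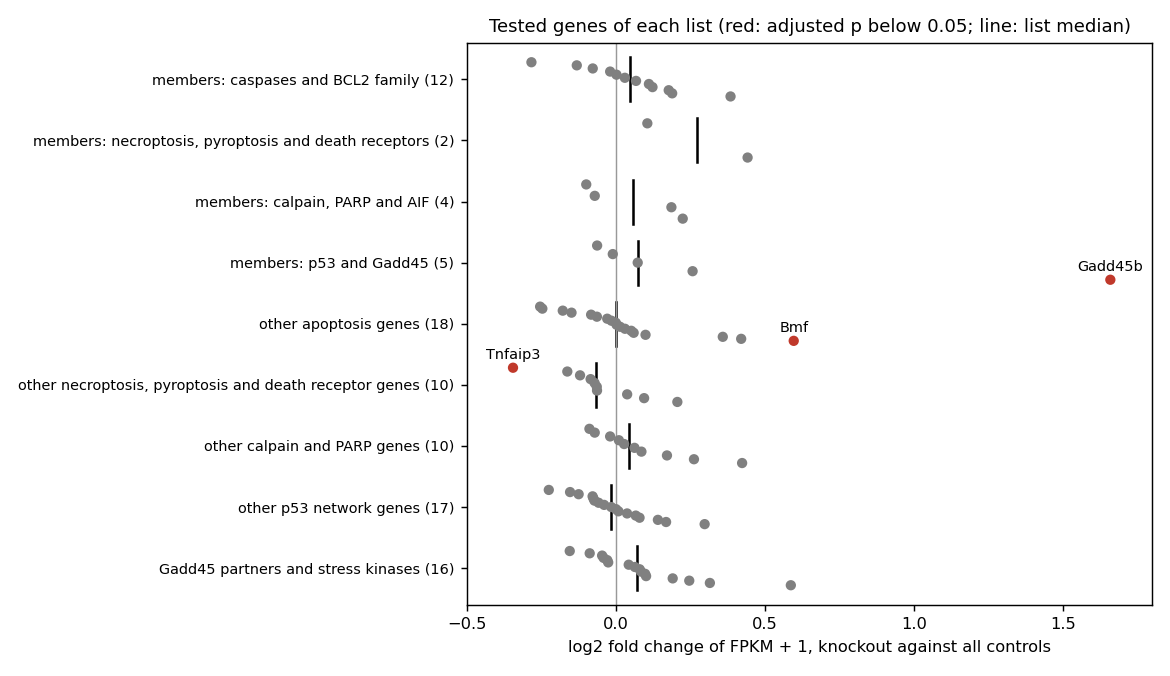
Log2 fold change in KO against all controls of each tested gene (points) in the 4 member groups and 5 further lists (rows, number tested in brackets), with the list median as a line. Red points passed the test: Gadd45b at 1.66, Bmf at 0.60 and Tnfaip3 at -0.35.

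Markers of reactive glia and microglia differed between KO and control libraries, as Gadd45b did, while no rod marker passed the test. The summed level of 14 microglia and macrophage markers was 58.3 to 60.8 FPKM in KO libraries and 28.9 to 32.0 FPKM in control libraries, and 5 of 10 tested markers rose against all controls. The sum of 12 reactive glia genes was 175 to 243 FPKM in KO libraries and 59.6 to 113 FPKM in control libraries, with 7 of 12 called. Of all tested genes 0.465% were called higher in this comparison. The highest sums were in the lens-rich KO 1 and HET 1. In the lens-poor libraries the sum was 201 and 175 FPKM for KO and 59.6 to 63.8 FPKM for controls. Of 10 rod markers 7 were below and 3 above 0 on the log2 scale in KO against all controls. Their median was -0.12, with 0 called by limma and 3 at an unadjusted p under 0.05. No marker of these 3 lists was at 0 in any library, and their part in the Gadd45b difference was not tested. Within the 5 lens-poor libraries Gadd45b was at 11.5 and 8.05 FPKM in KO libraries and 1.98 to 2.96 FPKM in control libraries, and within the 5 libraries with Ddx3y it was at 10.4 and 11.5 FPKM in KO libraries and 1.98 to 2.67 FPKM in control libraries.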

How the data were processed

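Poly-A selected RNA of 7 mouse eye libraries was sequenced, and the authors deposited gene-level FPKM, 1 column per library. The submitters' processing notes list HTSeq, Bowtie2 (2.0.6), DESeq and TopHat2 (2.0.9), and GRCm38 or mm10 as the genome, with no role or setting for any of them. The labels' protocols describe a kit that does not mark strand, so overlapping genes on opposite strands share reads. Positions, exon lengths and overlaps were taken from GENCODE mouse release M21, which held 54409 of the gene identifiers. With those lengths 96.8% of values above 0 were whole multiples of 1 read per library within 0.01, which gave the read numbers used for depth and for voom; Bad, Capn1, Fas and Pmaip1 gave no whole reads.

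FPKM were tested as log2(FPKM + 1) with limma 3.58.1 in R 4.3.3 (moderated, with trend), over genes averaging 1 FPKM or more in the 7 libraries: a fit with 3 genotypes (4 residual degrees of freedom) and one with KO against HET and WT pooled (5). Tests were tried on simulated data first. Alternatives were pseudocounts of 0.1 and 0.5, no filter, the TPM scale, voom, each library left out, both lens-rich libraries left out, lens and Ddx3y levels as covariates, and a replicate block. All members are named. Full statistics go to called members and to the 3 with the smallest p in each group, and of the other lists to called genes and the 2 with the smallest p. Members and lists were chosen with earlier results of these data known.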

Additional observations from a re-analysis of the deposited data

Results flagged for a closer look

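In 2 of the 33 members 1 control library stood apart from the other 3 by Dixon's gap-to-range criterion, which chance alone meets in about 1 of 20 groups. Mcl1 was at 20.7 FPKM in HET 2, with the next control library at 24.2 FPKM. Casp4 was listed at 0 in HET 2, with the next at 0.0357 FPKM, a gap of 2 reads.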

How the results depend on the processing

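Gadd45b kept its direction in every alternative run. The number of members called in KO against WT went from 1 to 0 without the filter, without both lens-rich libraries, with the lens level or the Ddx3y level as a covariate and with the replicate block, and ranged from 0 to 1 when 1 library was left out. Gadd45b there stood at 1.60 (adjusted p = 0.0613), 1.57 (0.174), 1.56 (0.0659), 1.58 (0.0721) and 1.73 (0.117). In KO against HET the number went from 1 to 0 without both lens-rich libraries (1.84, adjusted p = 0.248), with the Ddx3y covariate (1.75, 0.0602) and with the replicate block (1.85, 0.128), and ranged from 0 to 1 when 1 library was left out. Fewer libraries or degrees of freedom enter the covariate, block and left-out fits, and no filter means 33081 genes tested; other causes were not tested. Replicate numbers were not taken to pair the libraries. Deviations correlated at 0.430 for KO 1 and HET 1, both lens-rich, and at 0.271 for KO 2 and HET 2. They also correlated at 0.253 for KO 3 and HET 2, whose numbers differ. Values were 0.092 for KO 1 and WT 1, -0.023 for KO 2 and WT 2, and -0.018 for HET 1 and WT 1. In groups of 2 libraries deviations mirror each other, so these values are not independent. With the block, counts over all genes were 3, 0 and 38 in KO against WT, HET and all controls, against 50, 49 and 95 without it. Over the other settings these counts ran from 3 to 77, 0 to 76 and 45 to 147, highest with voom on recovered reads in each; for HET against WT it was 19 without the filter and at most 3 elsewhere. Values that changed sign, all far from the threshold, were on the TPM scale in KO against WT Casp9 (-0.0065), Mcl1 (-0.021), Capn1 (-0.016) and Gadd45g (-0.0031), where all tested genes shifted by -0.16; Capn1 without both lens-rich libraries (-0.020); Gadd45a with the replicate block (0.011); and, with 1 library left out, Aifm1 against all controls (-0.16 to 0.00013), Capn1 (-0.020 to 0.23), Gadd45g (-0.17 to 0.45) and Gadd45a (-0.091 to 0.011) against WT. Low levels limit what can be read from the 10 members below 1 FPKM, though Casp6 stood on 62 to 85 reads.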
